A study of Ictidomys tridecemlineatus with 31 samples.

Results

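The genes described here belong to the metabolism of dopamine and related monoamines in the kidney of the 13-lined ground squirrel (Ictidomys tridecemlineatus), a seasonal hibernator. They were found by symbol in the table of kidney expression values: Maoa (gene7479), Maob (gene7480), Ddc (gene20049), Rnls (gene21644) and Gch1 (gene20416), each in a single row. These are 5 of the 6 names looked for, among 12863 genes. The sixth, Drd1, the D1 dopamine receptor, matched no row and was not analysed here. Maoa was chosen by its own measured values in SA and SpD, so its levels in those states are given as a description with no test, while the other genes were named for their function.

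Dopamine in the kidney is made largely by proximal tubule cells rather than by nerves. These cells take up L-DOPA from the filtrate and the blood, Ddc (aromatic L-amino acid decarboxylase) converts it to dopamine, and the product acts on receptors of the tubule to slow sodium reabsorption. Monoamine oxidases A and B, flavoenzymes of the outer mitochondrial membrane, oxidise dopamine to an aldehyde with release of hydrogen peroxide; the A form also favours serotonin and noradrenaline, and the B form phenylethylamine. Rnls encodes renalase, a flavoprotein secreted by the kidney that was named for an effect on catecholamines and is now known to oxidise unusual forms of NADH. Gch1 encodes GTP cyclohydrolase 1, the enzyme that limits synthesis of tetrahydrobiopterin, the cofactor of the hydroxylases that make L-DOPA and serotonin precursors and of nitric oxide synthases.

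RNA-Seq libraries of polyadenylated RNA came from a fragment of frozen kidney of 31 animals, each a separate individual of a captive colony or a commercial supplier, with no genetic change or drug in any group and no age given in the sources used here. Of the 6 states, SA (5 animals, 3 female) were warm summer active animals laying down fat, and SpD (5 animals, 3 female) were warm animals kept in the dark hibernaculum in spring after their last torpor bout. The other 4 states are steps of the torpor-arousal cycle in winter: Ent (5 animals, 3 female) were cooling into torpor, EAr (5 animals, 2 female) were early in arousal and still cold, LAr (6 animals, 3 female) were later in arousal and still rewarming, and IBA (5 animals, 3 female) were warm between bouts of torpor. The libraries were made in 2 experiments with different kits. Experiment 1 (TruSeq, 9 animals) holds 3 each of IBA, Ent and SpD, and experiment 2 (Nugen, 22 animals) holds the rest, so SA, EAr and LAr were measured in experiment 2 alone. K113 (LAr) and K137 (SA), which the study set aside before its tests, are shown apart, and 29 animals entered the fit.

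Values are the authors' batch-corrected rlog values, a log2 scale on which a difference of 1 is a doubling or halving. They ran from 4.11 to 19.79 over the table, and the median gene of an animal lay between 9.74 and 9.88. Read counts are not analysed here and the depth behind each value is unknown, so errors come from the spread between animals. All 12 proximal tubule markers looked for had a row, as had the markers of the loop of Henle, the collecting duct, endothelium, podocytes, fibroblasts and macrophages. Of the adrenal cortex markers 0 of 8 had a row, and of those of adrenal medulla and sympathetic nerve 1 of 8 (Slc18a1, a vesicular monoamine transporter). The values compare 1 gene across animals and say nothing of which gene was the more abundant, since they are not scaled to transcript length.

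**Figure D1:**
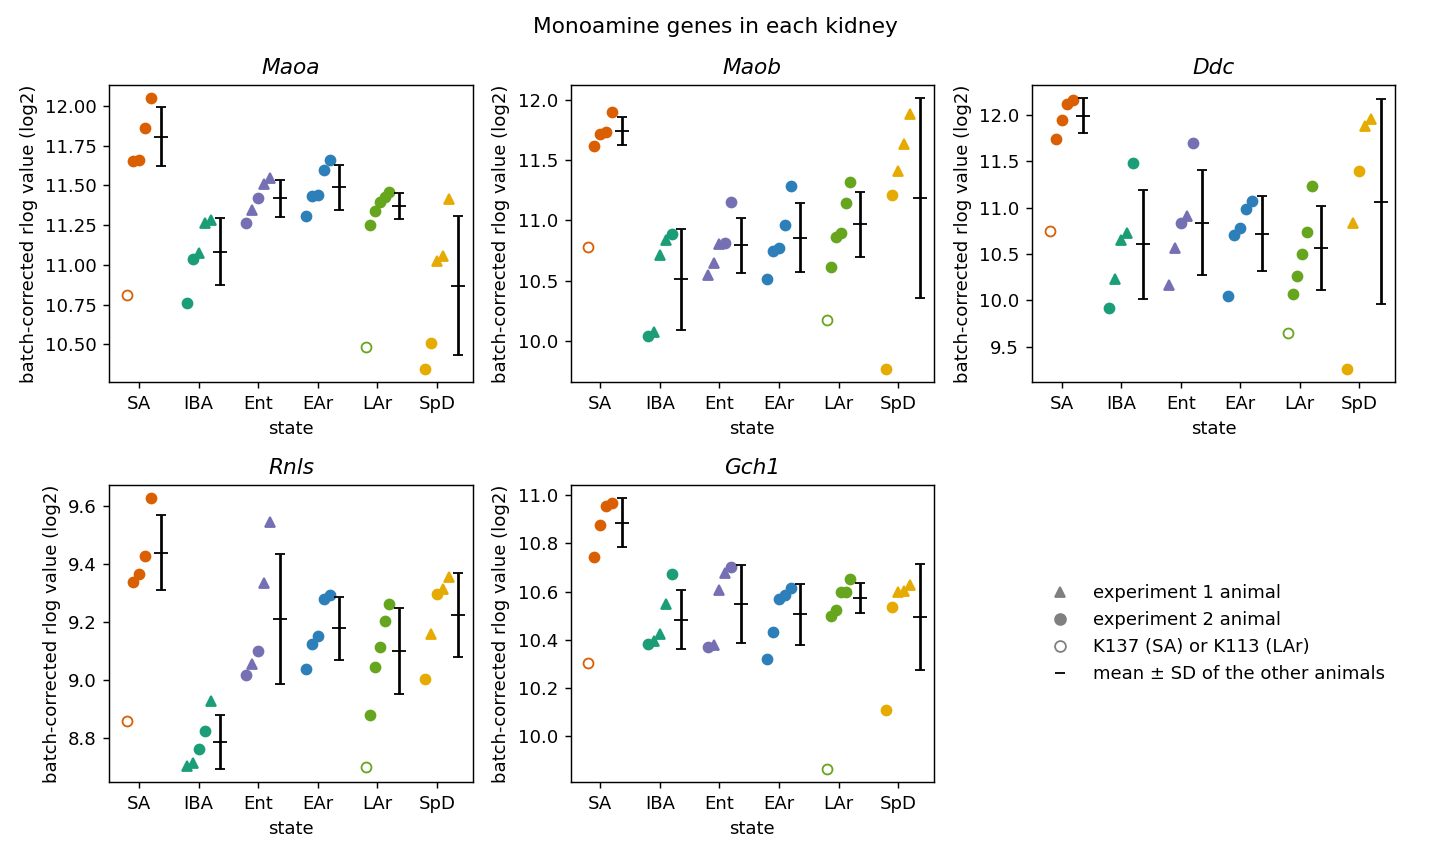
Batch-corrected rlog value (log2, y axis) of each gene in each kidney, by state (x axis). Triangles are experiment 1 animals, filled circles experiment 2 animals and open circles K137 (SA) and K113 (LAr); bars give the mean ± SD of the other animals of the state. All 4 SA animals lay above all 5 IBA animals for every gene, and both open circles lay below the rest of their state.

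Maoa, the gene by which the set was chosen, was highest in SA and lowest in SpD, with the animals of the torpor-arousal cycle between. In SA it measured 11.66 in K138, 11.66 in K139, 11.86 in K140 and 12.05 in K141 (mean 11.81 ± 0.19, SD, n = 4). In SpD it measured 11.05 in K3, 11.02 in K6, 11.42 in K9, 10.51 in K84 and 10.35 in K130 (mean 10.87 ± 0.44, n = 5). Every SA animal was above every SpD animal, and the lowest values of SpD were those of K84 and K130, the animals of that state from experiment 2. The fitted difference, SA minus SpD with terms for sex and experiment, was 1.17 on the log2 scale (SE 0.128, 95% interval 0.90 to 1.43), a 2.25-fold difference. The nearest animals on either side of the gap were K139 of SA and K9 of SpD. The difference was 0.93 without the term for experiment and 1.38 within experiment 2 alone, where only 2 SpD animals remain.

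Through the cycle Maoa was lower in the warm IBA animals than in the cool ones. IBA values were 11.07 in K1, 11.26 in K4, 11.28 in K7, 10.76 in K104 and 11.04 in K171 (mean 11.08 ± 0.21, n = 5). Ent values were 11.55 in K2, 11.34 in K5, 11.51 in K8, 11.26 in K155 and 11.42 in K167 (mean 11.42 ± 0.12, n = 5). The overlap of IBA and Ent was slight: K155 of Ent lay at the level of K4 and just under K7, and the other Ent animals lay above all of IBA. EAr ran 11.60 in K154, 11.43 in K156, 11.31 in K157, 11.66 in K158 and 11.44 in K165 (mean 11.49 ± 0.14, n = 5), and LAr 11.34 in K109, 11.42 in K111, 11.46 in K112, 11.25 in K115 and 11.39 in K116 (mean 11.37 ± 0.08, n = 5). All EAr animals were above all IBA animals, whereas LAr overlapped IBA through K115. K113 (LAr) stood at 10.48 and K137 (SA) at 10.81, each below every other animal of its state.

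Tested by limma over all genes, with q the Benjamini-Hochberg adjusted p within a contrast and the study's threshold of 0.001 for a call, Maoa did not pass in any pair of neighbouring states of the cycle. Ent minus IBA was 0.33 (SE 0.108, q 0.0436), a 1.26-fold difference. The difference had the same sign in both experiments, 0.26 in experiment 1 and 0.44 in experiment 2. IBA minus LAr was −0.52 (SE 0.121, q 0.00551), which is 1.43-fold. The means of the deposited values differ by less, 0.29, because the fit also carries a term for experiment and LAr comes from experiment 2 alone; without that term IBA minus LAr was −0.29 (q 0.171). EAr minus Ent was 0.30 (q 0.585) and LAr minus EAr was −0.11 (q 0.862). The means of EAr and Ent differ by 0.07, and EAr also comes from experiment 2 alone. For the same reason, fitted differences of SA, EAr or LAr against IBA, Ent or SpD can depart from the differences of the means for any gene. The F test over the 4 hibernation states gave q 0.00507 for Maoa. IBA minus SA, −0.95 (SE 0.128), and SpD minus IBA, −0.21 (SE 0.108), share animals with the contrast that chose the gene and were not tested.

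In order of the mean of the deposited values the states ran SA, EAr, Ent, LAr, IBA and SpD for Maoa. Each state overlapped its neighbour in that order. The order depends on the experiments: IBA averaged 11.21 in experiment 1 and 10.90 in experiment 2, and LAr has experiment 2 animals alone. With the term for experiment, Ent minus IBA (0.33) and IBA minus LAr (−0.52) place LAr above Ent. SA and EAr, next to each other at the top, touch at K158 of EAr (11.66) and K138 and K139 of SA.

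Maob lies beside Maoa on the X chromosome in the RefSeq annotation mIctTri1.hap1, which is not the assembly the authors used. Its pattern differed from that of Maoa in SpD. SA values were 11.73 in K138, 11.61 in K139, 11.89 in K140 and 11.72 in K141 (mean 11.74 ± 0.12, n = 4), and IBA values 10.71 in K1, 10.84 in K4, 10.08 in K7, 10.05 in K104 and 10.89 in K171 (mean 10.51 ± 0.42, n = 5). All SA animals were above all IBA animals. SpD measured 11.64 in K3, 11.88 in K6, 11.41 in K9, 11.21 in K84 and 9.77 in K130 (mean 11.18 ± 0.83, n = 5), so that K3 and K6 fell within the range of SA and K130 below every other animal in the table. Cycle states ran from 10.55 to 11.15 in Ent, 10.52 to 11.29 in EAr and 10.61 to 11.32 in LAr, each overlapping IBA.

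The fitted Maob difference, IBA minus SA, was −1.44 (SE 0.296, q 0.00141), 2.71-fold, which missed the threshold of 0.001. SpD minus IBA was 0.67 (SE 0.251, q 0.0819), with 1.10 in experiment 1 and 0.03 in experiment 2, where K130 is 1 of 2 SpD animals. SA minus SpD, given without a test, was 0.77 (95% interval 0.16 to 1.39). No contrast within the cycle passed: the largest, IBA minus LAr, was −0.65 (q 0.107). Reads that fit both Maoa and Maob would be divided between them by the transcript quantifier, and whether any were was not tested.

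Because the genes are neighbours and their enzymes share substrates, their difference was followed within each animal. Maoa minus Maob averaged 0.07 ± 0.18 in SA, 0.57 ± 0.41 in IBA, 0.62 ± 0.25 in Ent, 0.63 ± 0.18 in EAr, 0.41 ± 0.23 in LAr and −0.31 ± 0.59 in SpD. Zero on this scale does not mean equal abundance, but a shift between states is a shift in the ratio. Single animals ran from −0.86 to 0.58 in SpD and from −0.08 to 0.33 in SA. The range of SA overlapped those of IBA, Ent, EAr and LAr. It uses the SA and SpD values by which Maoa was chosen, so no test is given.

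**Figure D2:**
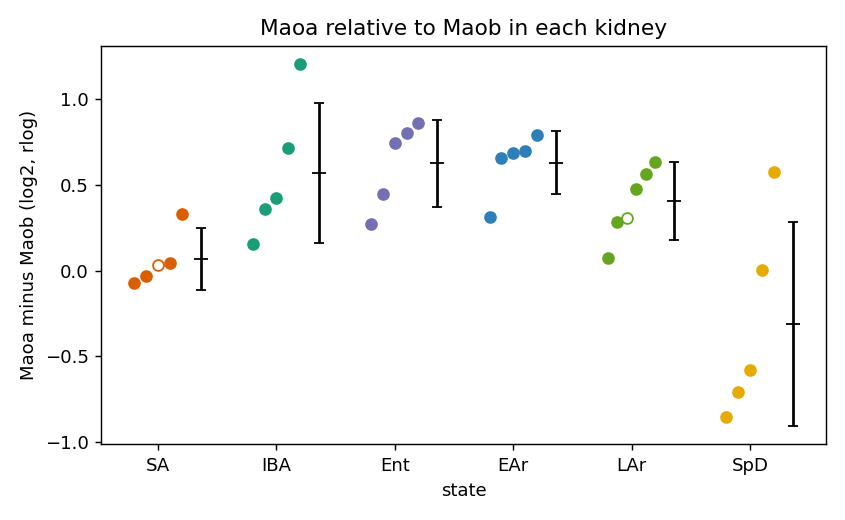
Maoa minus Maob (difference of rlog values, log2, y axis) in each kidney by state (x axis), with the mean ± SD beside the points and K137 and K113 as open circles. The cycle states averaged between 0.41 and 0.63, SA 0.07 and SpD −0.31, and the SpD animals spread the most, from −0.86 to 0.58.

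Ddc, the enzyme that forms dopamine from L-DOPA, had the widest spread of the members in each state, level with that of Maoa in SA. It measured 12.11 in K138, 11.95 in K139, 12.16 in K140 and 11.74 in K141 of SA (mean 11.99 ± 0.19, n = 4). In IBA it measured 10.72 in K1, 10.65 in K4, 10.23 in K7, 9.92 in K104 and 11.49 in K171 (mean 10.60 ± 0.59, n = 5). SpD spanned 11.95 in K3, 11.88 in K6, 10.83 in K9, 11.40 in K84 and 9.26 in K130 (mean 11.06 ± 1.10, n = 5). SA stood above all IBA, Ent, EAr and LAr animals, and SpD ran from within SA to below every other animal in the table. Ent ran from 10.17 to 11.70, EAr from 10.05 to 11.07 and LAr from 10.06 to 11.23, which all overlapped IBA.

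The Ddc difference, IBA minus SA, was −1.47 (SE 0.455, q 0.0226), a 2.78-fold difference that did not pass 0.001. SpD minus IBA was 0.46 (SE 0.387, q 0.478), and its sign differed between experiments, 1.02 in experiment 1 and −0.37 in experiment 2. SA minus SpD, with no test, was 1.01 (95% interval 0.06 to 1.96). The intervals of the cycle contrasts reached about 1 on either side, as in EAr minus Ent (−0.02, 95% interval −0.93 to 0.89). Changes of nearly that size thus lie within the intervals. Larger ones could also go uncalled at 0.001, as the −1.47 of IBA minus SA did.

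Rnls, the renalase gene, was the member whose change between neighbouring states passed the test. SA values were 9.43 in K138, 9.63 in K139, 9.34 in K140 and 9.36 in K141 (mean 9.44 ± 0.13, n = 4). IBA values were 8.70 in K1, 8.93 in K4, 8.71 in K7, 8.76 in K104 and 8.82 in K171 (mean 8.79 ± 0.09, n = 5). No IBA animal reached the lowest SA, Ent, EAr or SpD animal, and IBA was the tightest group of the gene. Ent measured 9.34 in K2, 9.06 in K5, 9.54 in K8, 9.02 in K155 and 9.10 in K167 (mean 9.21 ± 0.22, n = 5), and SpD 9.35 in K3, 9.16 in K6, 9.31 in K9, 9.30 in K84 and 9.002 in K130 (mean 9.22 ± 0.14, n = 5). EAr measured 9.28 in K154, 9.29 in K156, 9.15 in K157, 9.13 in K158 and 9.04 in K165 (mean 9.18 ± 0.11, n = 5). LAr, at 9.04 in K109, 9.26 in K111, 9.11 in K112, 8.88 in K115 and 9.20 in K116 (mean 9.10 ± 0.15, n = 5), touched IBA at K115 alone. K113 stood at 8.70, just under the lowest IBA animal, and K137 at 8.86, among the IBA animals.

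Rnls fell from SA to IBA by 0.74 on the log2 scale (SE 0.104, q 3.73e-05), 1.67-fold, and this was the single call among the 28 tests of members in pairs of neighbouring states. It held in each of the 29 fits that left out 1 animal (−0.78 to −0.69, q at most 0.000326) and within experiment 2 (−0.71, q 0.000629). It was lost when K113 and K137 were put back (−0.62, q 0.00491). The differences that bracket IBA ran the same way and missed the threshold: Ent minus IBA was 0.42 (SE 0.0883, q 0.00359), SpD minus IBA 0.44 (SE 0.0883, q 0.00236) and IBA minus LAr −0.39 (SE 0.0988, q 0.00868). In experiment 1 and experiment 2 Ent minus IBA was 0.53 and 0.27, and SpD minus IBA 0.49 and 0.36. EAr minus Ent, 0.06 (q 0.885), and LAr minus EAr, −0.09 (q 0.852), did not pass. SA minus SpD was 0.30 (95% interval 0.09 to 0.52), without a test.

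Gch1, the enzyme of cofactor synthesis, was higher in SA than in every other state and near level among the rest. SA values were 10.75 in K138, 10.95 in K139, 10.97 in K140 and 10.87 in K141 (mean 10.89 ± 0.10, n = 4). IBA measured 10.42 in K1, 10.55 in K4, 10.40 in K7, 10.38 in K104 and 10.67 in K171 (mean 10.48 ± 0.12, n = 5). SpD measured 10.60 in K3, 10.63 in K6, 10.60 in K9, 10.54 in K84 and 10.11 in K130 (mean 10.50 ± 0.22, n = 5). All SA animals were above all animals of each other state, and the means of the other 5 states lay between 10.48 and 10.57. Ent ran from 10.37 to 10.70, EAr from 10.32 to 10.62 and LAr from 10.50 to 10.65.

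IBA minus SA was −0.45 for Gch1 (SE 0.107, q 0.00431), 1.37-fold, short of the threshold. The other Gch1 contrasts between neighbouring states lay between −0.14 and 0.07, with q from 0.348 for IBA minus LAr to 0.991 for EAr minus Ent. SA minus SpD was 0.44 (95% interval 0.22 to 0.66), without a test.

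**Figure D3:**
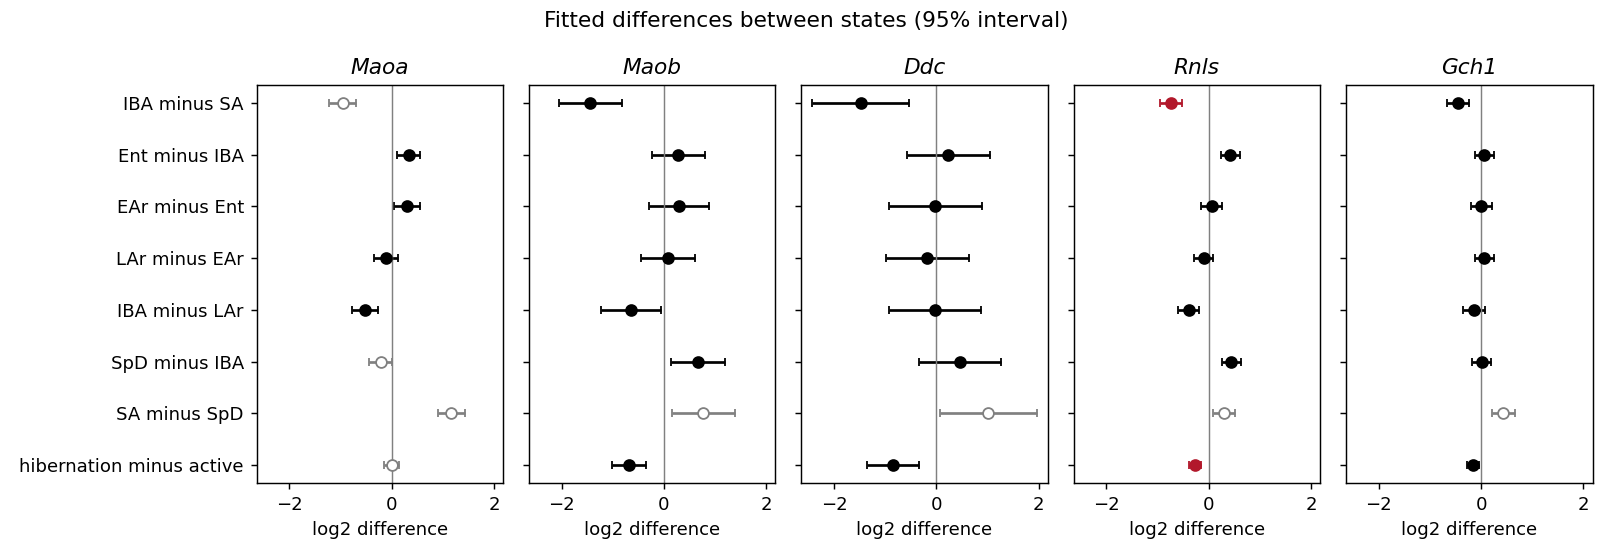
Fitted log2 difference between states (x axis, with its 95% interval) for each gene, 1 contrast per line. Red points passed q under 0.001, black points were tested and did not, and open gray points were not tested. Red marks Rnls in IBA minus SA and in hibernation minus active, and the tested differences of IBA minus SA all lie below zero.

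Over the members as a whole, all 4 tested genes were lower in IBA than in SA. At q under 0.001 this was 1 of 4 (Rnls), where 2.46% of all genes were called lower. At q under 0.05 it was 4 of 4, where 12.5% of all genes were lower. All 4 also had every IBA animal below every SA animal, as had 9.59% of all genes and, in the SA values that chose it, Maoa. The median difference of all genes was 0.03. These comparisons share the 4 SA animals, and the members were chosen with earlier results of these data known.

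Across the other pairs of neighbouring states 0 of the members passed 0.001. The shares called among all genes in either direction were 0.746% for Ent against IBA, 0.132% for EAr against Ent, 0.295% for LAr against EAr, 1.43% for IBA against LAr and 1.25% for SpD against IBA. At q under 0.05, 2 of 5 members (Maoa and Rnls) were higher in Ent than in IBA, beside 5.52% of all genes, and the same 2 of 5 were lower in IBA than in LAr, beside 8.03%. At an unadjusted p under 0.05, in either direction, 2 of 5 members passed for Ent against IBA, beside 29.4% of all genes, and 1 of 5 for EAr against Ent, beside 7.16%. It was 0 of 5 for LAr against EAr, beside 8.33%, 3 of 5 for IBA against LAr, beside 33.4%, and 2 of 4 for SpD against IBA, beside 26.6%.

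The F test over the 4 hibernation states called 0 of 5 members at 0.001, where it called 1.83% of all genes. At 0.05 it passed for Rnls (q 0.00297) and Maoa (q 0.00507), 2 of 5, where 16.1% of all genes passed, and the q of the other 3 members were 0.293 or more. Over all 6 states 1 of 4 members was called, Rnls (q 0.000184), beside 9.34% of all genes. All 4 passed 0.05, with Maob at q 0.00791, Gch1 at q 0.0125 and Ddc at q 0.0472, where 46.1% of all genes did.

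Season was compared as the mean of the 4 hibernation states minus the mean of SA and SpD. Rnls fell by 0.26 (SE 0.0563, q 0.000968), 1 of 4 members, where 5.29% of all genes were called lower in hibernation. This call lies at the threshold: it was lost in 22 of the 29 fits without 1 animal (q up to 0.00446) although the difference stayed between −0.28 and −0.24. Maob was lower by 1.60-fold (−0.68, SE 0.160, q 0.00222), Ddc by 1.80-fold (−0.85, SE 0.247, q 0.0103) and Gch1 by 1.12-fold (−0.16, SE 0.0577, q 0.0332). At q under 0.05 that is 4 of 4 members, beside 16.8% of all genes. The contrast averages SA with SpD, and SA had the highest mean for all 4. Gch1 in SpD (10.50) lay among the cycle states (10.48 to 10.57), and its SpD minus IBA was 0.01 (q 0.959). Rnls in SpD (9.22) lay beside Ent (9.21). SpD minus IBA was 0.44 for Rnls (q 0.00236), 0.67 for Maob (q 0.0819) and 0.46 for Ddc (q 0.478). Without SpD K130 alone, Maob (−0.85, q 1.28e-05) and Ddc (−1.11, q 0.000113) passed 0.001. Within experiment 2, where K130 is 1 of 2 SpD animals, Maob was at −0.32 (q 0.190) and Ddc at −0.34 (q 0.411). Maoa, not tested here, had a difference of 0.00 (95% interval −0.14 to 0.15), SA and SpD lying on opposite sides of the cycle states.

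Maoa and Maob are X-linked in mammals, and sex was in the model. Female minus male was −0.02 for Maoa (95% interval −0.15 to 0.12, q 0.976) and 0.18 for Maob (95% interval −0.13 to 0.49, q 0.885). Sex passed 0.001 for 0 of 5 members, where 0.0233% of all genes were called. At an unadjusted p under 0.05 it was also 0 of 5, beside 6.41% of all genes.

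Proximal tubule markers moved with several of these genes. The list holds 12 genes, among them Lrp2 and Cubn (endocytic receptors), Slc5a2 (a glucose transporter), Slc34a1 (a phosphate transporter) and Slc22a6 (an organic anion transporter). Their mean rlog value ran from 14.73 to 15.03 in SA, 13.56 to 14.37 in IBA, 13.91 to 14.69 in Ent, 14.30 to 14.63 in EAr, 14.18 to 14.57 in LAr and 13.13 to 14.78 in SpD. In IBA minus SA, 9 of the 12 were lower at q under 0.05, beside 12.5% of all genes, and 0 at 0.001, beside 2.46%. Their median difference was −0.89. In bulk kidney, fewer proximal tubule cells in a fragment and less RNA of these genes per cell cannot be told apart.

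K130, K104, K113 and K137, each the lowest of its state in this marker mean, were also low in most or all members. Other animals low in the marker mean differed. K7 (IBA), at 13.69, had the highest Maoa of IBA (11.28), though its other members lay low in that state. K8 (Ent), the lowest of Ent at 13.91, had the highest Rnls of Ent (9.54) and the lowest Ddc (10.17). K130 (SpD), at a marker mean of 13.13, was below the other SpD animals for 5 of 5 members. K104 (IBA), at 13.56, was below the other IBA animals for Maoa, Maob, Ddc and Gch1 and within them for Rnls. K113, at 13.41, and K137, at 13.78, were below the rest of their states for 5 of 5 members. The share of all genes for which K130, K104, K113 and K137 lay lowest in their states was not computed. These counts therefore do not set the members apart from other genes. In the same animals the inner medulla marker mean was the highest of the state. It was 12.72 in K130 (next 11.87), 12.70 in K104 (next 11.44), 13.21 in K113 (next 10.26) and 13.73 in K137 (next 11.71). Its part in the values of the members was not tested.

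Across the 29 animals the Pearson correlation with the marker mean was 0.899 for Maob, 0.831 for Ddc, 0.739 for Gch1, 0.673 for Maoa and 0.532 for Rnls. Taken within states, it was 0.926 for Maob, 0.841 for Ddc, 0.666 for Gch1 and 0.634 for Maoa but 0.229 for Rnls. Without K104 and K130 it was 0.858 for Maob, 0.765 for Ddc, 0.619 for Gch1, 0.443 for Maoa and 0.499 for Rnls. Among the members, Maob and Ddc ran most alike (0.858 over 29 animals, 0.804 without K104 and K130), while Maoa and Maob reached 0.503, and 0.254 without those animals. These values share libraries and scaling and are given as a description.

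**Figure D4:**
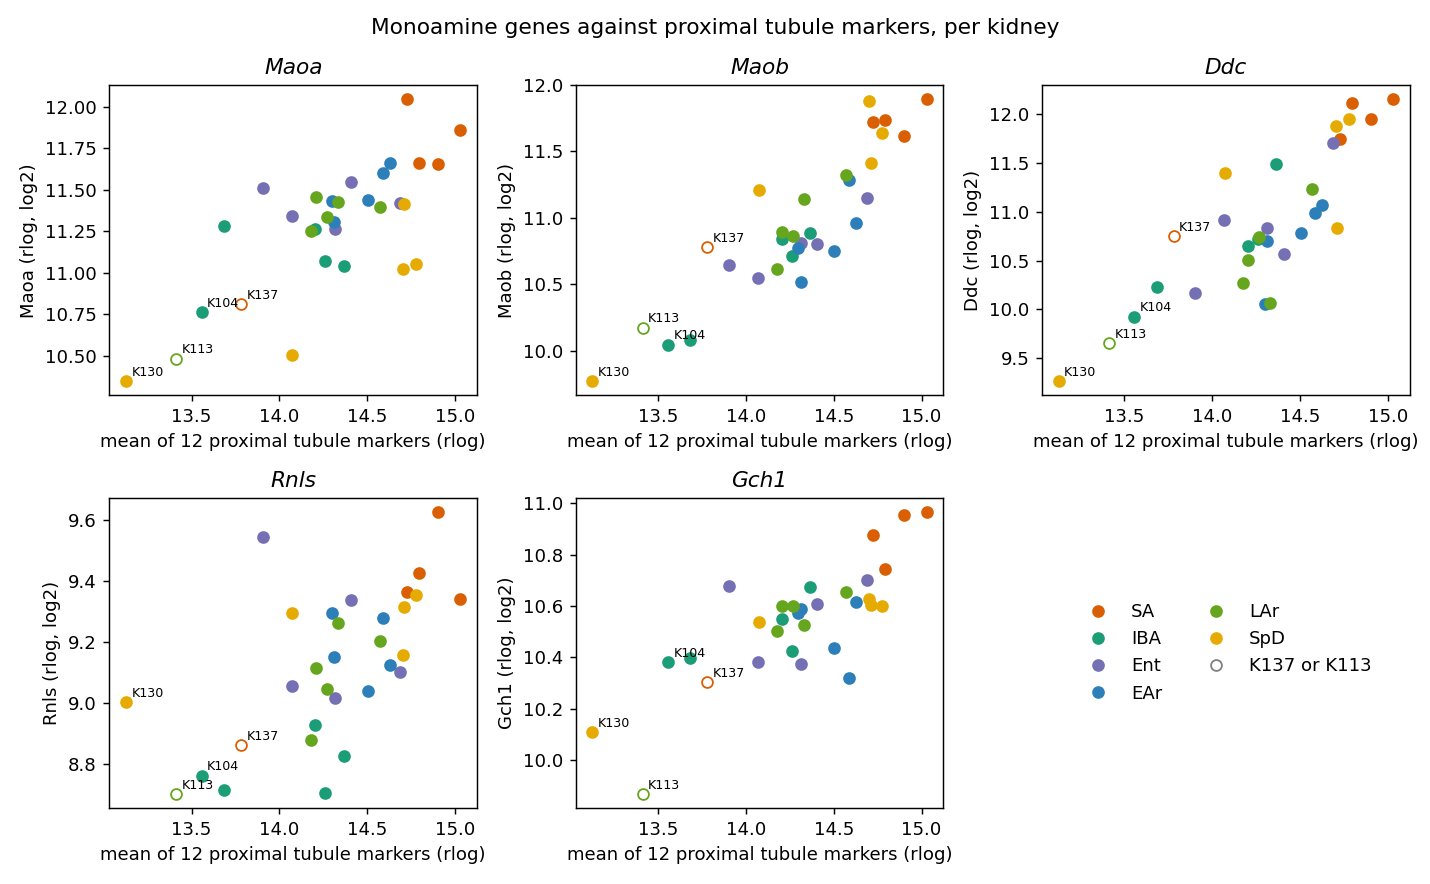
Each gene (rlog value, log2, y axis) against the mean rlog value of 12 proximal tubule markers (x axis), 1 point per kidney and colour by state; K137 and K113 are open, and K104, K130, K113 and K137 are named. By Pearson correlation over the 29 animals, Maob and Ddc follow the marker mean most closely (0.899 and 0.831) and Rnls least (0.532). Without K104 and K130 the lowest is Maoa (0.443), with Rnls at 0.499.

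A fit with the marker mean as a further term, leaving out Slc34a1, was added after the data were seen. In it the IBA minus SA difference went from −1.44 to −0.38 for Maob (q 0.0796), from −1.47 to 0.036 for Ddc (q 0.953) and from −0.45 to −0.20 for Gch1 (q 0.213). For Rnls it went from −0.74 to −0.69 (q 0.00220), which lost the call, and for Maoa, untested, from −0.95 to −0.66. The season difference of Maob, −0.40, passed 0.001 in this fit (q 6.79e-05), while that of Rnls, −0.25, lost its call (q 0.00231). SpD minus IBA was 0.44 for Maob (q 0.00403) and 0.43 for Rnls (q 0.00233). The untested SA minus SpD difference was 0.93 for Maoa, −0.06 for Maob and −0.17 for Ddc with the term.

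In IBA minus SA at q under 0.05, 12.5% of all genes were lower and 10.4% higher. Of the other marker lists, podocyte markers had 2 of 3 lower (median −1.21) and the distal convoluted tubule 1 of 2 (median −0.70). For the loop of Henle (2 genes), principal cells (4), intercalated cells (4), inner medulla (4), endothelium (4), fibroblasts (4) and macrophages (3) it was 0 in either direction, with medians from −0.23 to 0.28. The 1 measured gene of the adrenal medulla and nerve list, Slc18a1, had low values, with a mean of 7.10 in SA and 6.38 in IBA. Its mean was above the filter value of 7 in SA alone, so the filter may have kept it through SA. IBA minus SA, −0.81, is therefore given as a description. In IBA minus LAr at q under 0.05, podocyte markers had 3 of 3 lower and proximal tubule markers 1 of 12, beside 8.03% of all genes. Inner medulla markers had 2 of 4 higher and macrophage markers 1 of 3 higher, and the other lists had 0 in either direction. The share of all genes higher in that contrast is not given here. The part of these lists in the results on members was not tested.

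The wider monoamine pathway was read from 6 lists with 91 genes, of which 60 had a row and 55 are not members. The synthesis enzymes Th, Dbh, Pnmt, Tph1 and Tph2 matched no row. Neither did the plasma membrane transporters Slc6a2, Slc6a3 and Slc6a4 or the receptors Drd1, Drd2, Drd3, Drd4 and Drd5. In IBA minus SA 4 of the 55 fell at 0.001, beside 2.46% of all genes, and 0 rose, beside 0.684%. At 0.05, 25 were lower, beside 12.5% of all genes, and 2 were higher, beside 10.4%. Their median difference was −0.39, beside 0.03 for all genes. The proximal tubule list shares Slc34a1 with them, and the lists of other nephron parts and of nerve share Slc12a1, Slc12a3, Akr1b1 and Slc18a1.

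Among enzymes of breakdown, 3 of 15 fell from SA to IBA at 0.001, where 2.46% of all genes did, and 8 were lower at 0.05, where 12.5% were. Aldh1a1, a cytosolic aldehyde dehydrogenase that accepts the aldehyde made from dopamine by monoamine oxidase, had the largest difference of the 55 genes in this contrast and by season. It averaged 12.05 ± 0.71 in SA, 10.11 ± 0.23 in IBA, 10.57 ± 0.27 in Ent, 10.20 ± 0.39 in EAr, 10.09 ± 0.42 in LAr and 11.83 ± 0.54 in SpD. No animal of the cycle reached an SA or SpD animal. IBA minus SA was −1.87 (SE 0.308, q 0.000199), SpD minus IBA 1.72 (SE 0.262, q 0.000215) and the season difference −1.70 (SE 0.167, q 1.55e-07). SA minus SpD was 0.15 (q 0.775).

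Aldh7a1, a mitochondrial and cytosolic aldehyde dehydrogenase of lysine breakdown, fell from 14.22 ± 0.13 in SA to 13.14 ± 0.28 in IBA (−1.19, q 7.06e-05) and by season (−0.72, q 6.30e-06). Akr1a1, an aldehyde reductase, fell from 13.77 ± 0.21 in SA to 13.01 ± 0.20 in IBA (−0.90, q 0.000937). Inmt, which methylates indoleamines, fell by season (−0.79, q 0.000250), with 12.09 ± 0.22 in SA, 12.16 ± 0.61 in SpD and state means from 11.13 to 11.50 through the cycle. Hnmt, which methylates histamine, did not pass 0.001: it was 9.78 ± 0.50 in SA and 8.96 ± 0.34 in IBA (−0.91, q 0.00699).

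For synthesis, 0 of the 7 other genes passed 0.001 and 6 were lower in IBA than in SA at 0.05, beside the same 2.46% and 12.5% of all genes, with a median of −0.64. They include enzymes that recycle tetrahydrobiopterin, Qdpr (−0.64, q 0.00391) and Pcbd1 (−0.69, q 0.00273). Transporters of monoamines and L-DOPA had 1 of 10 called lower and 6 lower at 0.05, beside 2.46% and 12.5%. The 6 include Slc18a1, whose low values may have passed the filter through SA alone. Slc7a8, an exchanger of neutral amino acids that also carries L-DOPA, fell from 14.31 ± 0.29 in SA to 12.95 ± 0.42 in IBA (−1.58, SE 0.305, q 0.000879).

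Of 11 regulators of dopamine receptors, 2 were higher in IBA than in SA at 0.05, where 10.4% of all genes were, and 1 was lower, where 12.5% were. Their median was 0.17, and 0 were called at 0.001. The F test over the 6 states called 1 of the 11, and 4 of all 55 pathway genes, where it called 9.34% of all genes. These counts do not set the lists apart from other genes. The 1 was Grk2, a kinase that turns off active receptors (q 0.000497). It averaged 11.24 ± 0.06 in IBA, 11.19 ± 0.11 in SpD and 11.11 ± 0.01 in SA, 11.05 ± 0.06 in LAr, 10.88 ± 0.05 in EAr and 10.87 ± 0.21 in Ent. Snx19, a sorting protein linked to receptor traffic, differed little, from 10.94 ± 0.07 in EAr to 11.23 ± 0.08 in SA (q 0.00729 over the 6 states). Of 4 measured adrenergic and serotonin receptors, Adra2a, the alpha-2A adrenergic receptor, rose in hibernation by 0.77 (SE 0.132, q 0.000111). It averaged 9.23 ± 0.18 in SA and 9.48 ± 0.40 in SpD, and 9.81 ± 0.28 in IBA, 10.15 ± 0.39 in Ent, 10.52 ± 0.27 in EAr and 10.03 ± 0.43 in LAr, the highest mean being in the cold EAr animals.

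Transporters through which renal dopamine slows sodium uptake had 0 of 8 called in IBA minus SA, beside 2.46% of all genes lower, and 4 lower at 0.05, beside 12.5%. Slc9a3, the sodium-proton exchanger of the proximal tubule brush border, fell by season (−0.61, SE 0.118, q 0.000364), with 11.65 ± 0.21 in SA, 11.61 ± 0.28 in SpD and state means of 10.93 to 11.18 through the cycle. Over all 55 genes, season called 4 lower and 1 higher, where it called 5.29% of all genes lower and 4.43% higher. SpD minus IBA called 1 of the 55 higher, where it called 0.832% of all genes higher.

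**Figure D5:**
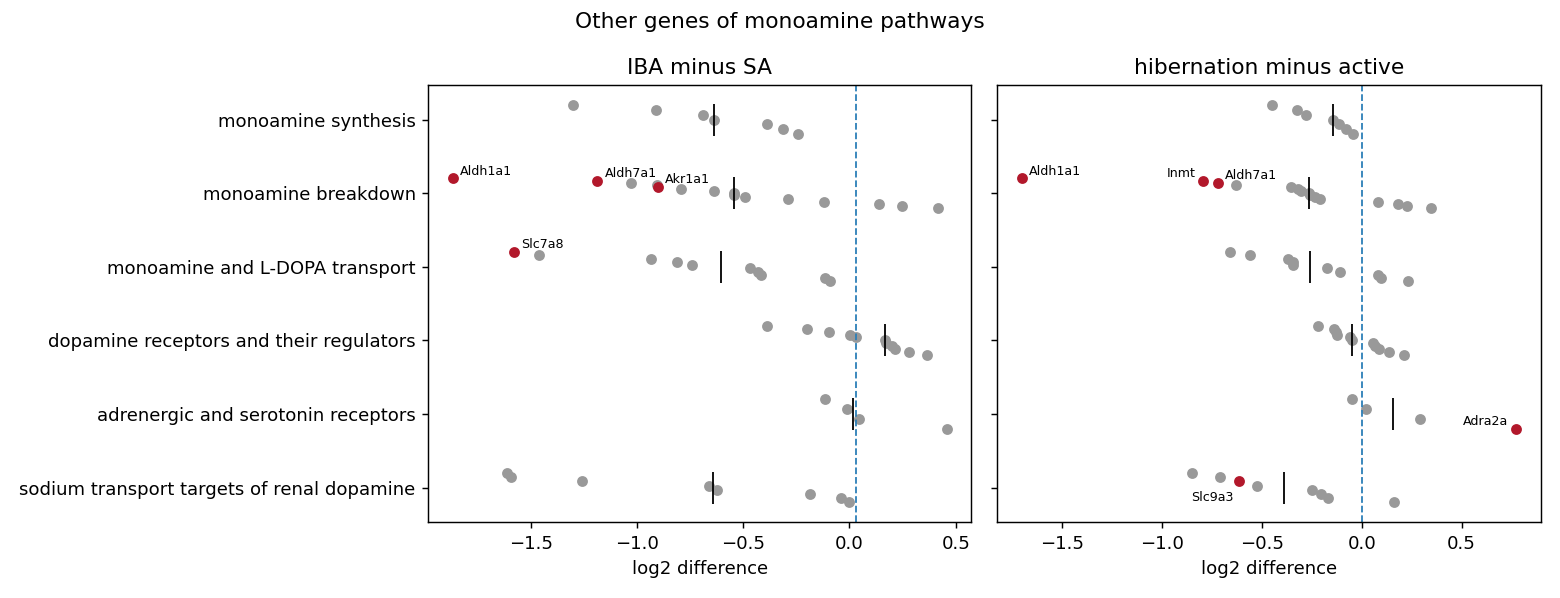
Fitted log2 difference (x axis) of each measured pathway gene that is not a member, by list (y axis), for IBA minus SA and for hibernation minus active. Red points passed q under 0.001 and are named, black ticks are list medians, and the dashed line is the median of all genes. In IBA minus SA the lists of synthesis, breakdown, transport and sodium targets have medians from −0.64 to −0.55, and the medians of the receptor lists are 0.17 and 0.02, where that of all genes is 0.03.

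The genes most like Maoa over the 29 animals, by Pearson correlation among 11943 genes with a symbol, were Acad11, an acyl-CoA dehydrogenase (0.876), Sgpp1, a sphingosine-1-phosphate phosphatase (0.851), Eya1, a transcriptional coactivator of kidney development (0.849), CES2, a carboxylesterase (0.849), and AQP11, an intracellular aquaporin (0.848). Acad11 averaged 13.57 ± 0.15 in SA, 13.09 ± 0.13 in IBA, 13.46 ± 0.08 in Ent, 13.51 ± 0.15 in EAr, 13.41 ± 0.11 in LAr and 12.97 ± 0.50 in SpD. Its deposited means run in the same order as those of Maoa, but it was picked for its likeness to Maoa in these animals. The most opposite were Flywch2 (−0.842), Hoxb5, a homeobox factor (−0.831), and LOC110598858 (−0.825). The other members ranked far lower: Gch1 was number 352 in likeness to Maoa (0.639), Maob 1008 (0.503), Rnls 1228 (0.470) and Ddc 1821 (0.390). These ranks include the SA and SpD animals whose values chose Maoa.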

How the data were processed

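The kidney table holds 31 animals and 12863 genes as the authors' batch-corrected rlog values on a log2 scale; it was deposited as processed values. Per the study's methods the authors used cutadapt for trimming, HISAT2 to set aside reads of the mitochondrial genome, Salmon for transcript abundance on HiC_Itri_2 with sums by gene, DESeq2 for the rlog transform, a filter on low genes, and limma to take out the difference between the 2 experiments; versions are not given in the sources used here. The stated filter, a value of at least 7 in at least 4 animals of a state, was met in the corrected table by 12689 genes and not by 174. Counts were not used, so the depth is unknown and the DESeq2 test of the study could not be run; batch correction and rlog shrinkage can make differences smaller and the residual spread too small.

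The members were matched by symbol. Genes were fitted with limma 3.58.1 (R 4.3.3), with an intensity trend and terms for state, sex and experiment, on 29 animals (without K113 and K137, as in the study), which left 21 residual degrees of freedom. P-values were adjusted over all 12863 genes within a contrast (Benjamini-Hochberg), and a call was q under 0.001. SA minus SpD was tested for no member, and for Maoa no contrast that uses both or either of SA and SpD. The code was tested on simulated data. The members, the 6 pathway lists and the 12 marker lists were chosen with earlier results of these data known. Named besides the members are pathway genes called in any contrast or F test, filled up to 10 by the lowest q over the 6 states, and the 5 genes most like and 3 most unlike Maoa; Qdpr, Pcbd1 and Slc18a1 are named in addition for their role, after their values were seen. Each animal is a separate individual, so the n are animals. No sequence is shown, and a few genes of the lists are not reported here by name. 11 alternatives were planned and 2 added later.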

Additional observations from a re-analysis of the deposited data

Results flagged for a closer look

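In 4 of 40 groups of 4 to 6 animals, for a single gene, 1 animal lay far from the rest, by the gap to its nearest neighbour as a share of the whole range. Chance gives about 1 in 20 for groups formed without regard to their values. Among the 29 animals the single flag was Gch1 in SpD, where K130 at 10.11 had a gap of 0.822 of the range of the 5 animals. The study had set K113 and K137 aside as outliers, so the 1 in 20 does not apply to groups that hold them. With K113 and K137 put back, Maoa in LAr had K113 at 10.48 (gap 0.785, 6 animals), Gch1 in LAr had K113 at 9.87 (gap 0.806, 6 animals) and Maob in SA had K137 at 10.78 (gap 0.750, 5 animals). In each case the animal was the lowest of its state, and its mean of proximal tubule markers was also the lowest of its state. The part of that marker mean in these values was not tested.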

How the results depend on the processing

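Members called at 0.001 in pairs of neighbouring states (1, Rnls) went to 0 with all 31 animals and with the proximal tubule marker term, to 9 tests at q under 0.05, and to 1 to 2 without 1 animal (2 without IBA K171, Ent K5, Ent K167 or SpD K130). The 1 member called for season (Rnls) was Maob instead with the marker term, and the count went to 0 with all 31 animals, without the experiment or the sex term, in experiment 2 and with animals centred to a common median, to 2 with weighted animals and without K104 and K130 together, to 4 at q under 0.05, and to between 0 and 3 without 1 animal (3 without SpD K130). The 1 called over 6 states went to 0 with all 31 animals and in experiment 2, to 4 at q under 0.05, and to 1 to 2 without 1 animal (2 without SpD K130). The 0 called over the 4 hibernation states went to 2 at q under 0.05 and to between 0 and 1 without 1 animal (1 without Ent K5); sex stayed at 0 in every fit. Pathway genes called in a contrast between states or seasons (7) went to 4 with all 31 animals, 16 weighted, 37 at q under 0.05, 12 with the marker term and 11 without K104 and K130, and to 3 to 13 without 1 animal (4 without SA K138, 3 without SA K139, 11 without Ent K167, 4 without SpD K3, 13 without SpD K130). Ddc in IBA minus SA went from −1.47 to 0.036 (SE 0.311, q 0.953) with the marker term. That value is close to 0, and it was the single change of sign. Maoa in SA minus SpD, 1.17, ran from 1.02 (without SpD K130) to 1.25 without 1 animal and from 0.93 to 1.38 elsewhere. Omitting the intensity trend, a robust prior or a filter on mean rlog values of at least 8 moved none of these counts. The cause of these shifts was not tested. No paired analysis was possible because each animal has its own number and no state shares one with another.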
